A study of Mus musculus with 8 samples.

Results

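The samples described here are the 4 wild-type arrays of a series of 8, chosen by their labels. They compare the spinal neural tube with the paraxial tissue beside it in 2 wild-type mouse embryos. Both tissues were cut separately by laser from each embryo at E10.5, so every neural tube array has a paraxial partner from the same animal. All embryos carry the strain label C57BL/6. The other 4 arrays hold the same tissues of 2 embryos with the genotype label fl/fl; cre/o, in a series on conditional loss of Geminin. They enter here as 2 further groups that share 1 estimate of the spread, and in a test of whether the tissue difference depends on genotype. No label says which promoter drives cre or whether sections were pooled. Nothing says that the embryos came from separate litters, so p-values measure only the spread between these samples, and 2 embryos a group limit the precision.

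The neural tube is the epithelium that becomes the spinal cord. Sonic hedgehog from the floor plate and notochord sets up ventral progenitor domains, BMP and Wnt signals from the roof plate set up dorsal ones, and Notch signalling paces the birth of neurons from these progenitors. Paraxial mesoderm lies on both sides of the tube and forms somites, whose dermomyotome and myotome give skeletal muscle and whose sclerotome gives vertebrae and ribs. Migrating neural crest cells, sensory ganglia, blood vessels and blood cells lie beside or within both tissues. Measurements come from bulk RNA, so fewer cells of a type and less RNA per cell cannot be told apart.

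Signals are log2 values scaled to the 75th percentile of each array, and every difference is neural tube minus paraxial tissue on that log2 scale, so a difference of 1 is a fold of 2. Among the wild-type arrays, 77.6% and 77.9% of probes were well above background in neural tube 1 and 2, and 77.4% and 73.6% in paraxial tissue 1 and 2. The markers given for the comparison followed the labels. Nkx2-2, a transcription factor of the most ventral progenitors (probe on chromosome 2 from 147008949 to 147009008, mouse build mm9), read 13.08 and 13.85 in neural tube and 10.90 and 10.96 in paraxial tissue. Shh, the floor plate and notochord signal (chromosome 5 from 28783983 to 28784042, mm9), read 10.94 and 10.79 against 8.69 and 8.77. For both genes the neural tube values lay above both paraxial values. The muscle intermediate filament Des (chromosome 1 from 75363404 to 75363629, mm9) read 9.90 and 11.25 in neural tube and 14.08 and 15.32 in paraxial tissue. The mesenchymal transcription factor Twist1 (chromosome 12 from 34644411 to 34644470, mm9) read 8.94 and 10.72 against 12.47 and 13.29. The fibrillar collagen Col1a1 (chromosome 11 from 94813115 to 94813174, mm9) read 12.04 and 12.01 against 14.20 and 14.13. The 3 mesodermal markers were therefore lower in both neural tube samples, yet well above background there, as Nkx2-2 and Shh were in paraxial tissue.

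**Figure D1:**
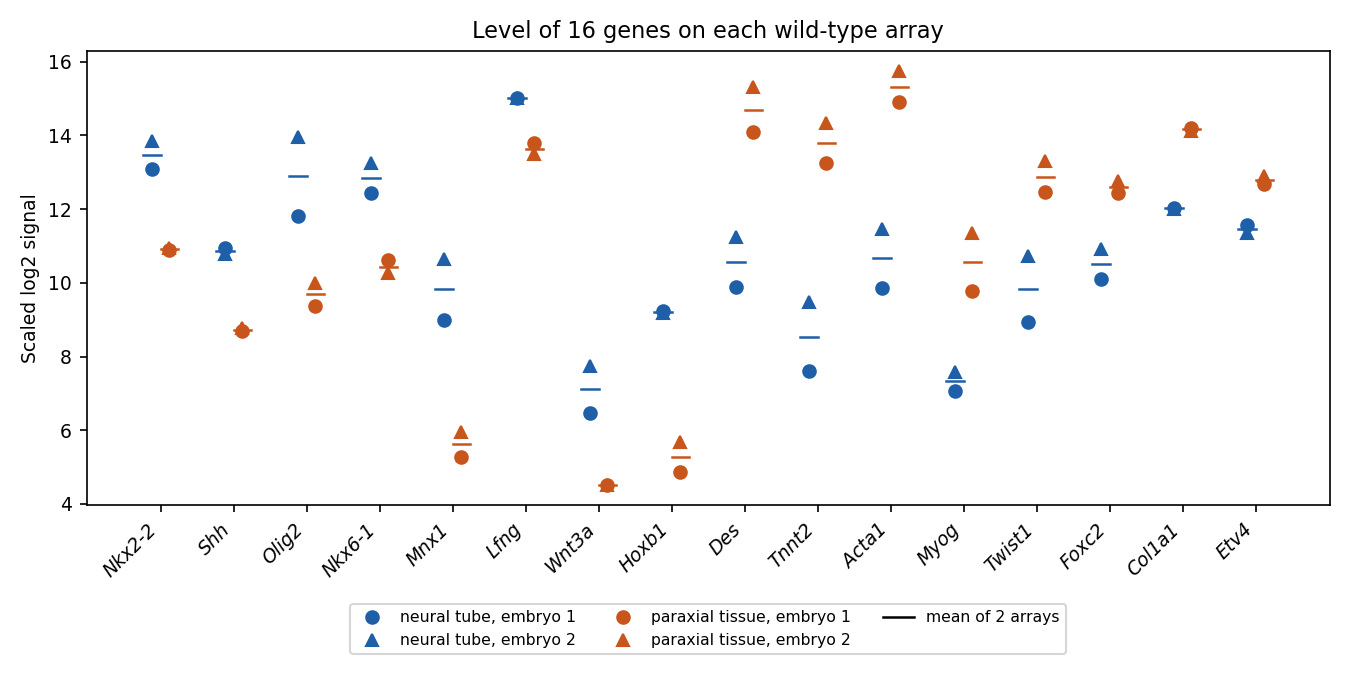
Scaled log2 signal (vertical axis) of 16 genes on each of the 4 wild-type arrays, with circles for embryo 1, triangles for embryo 2 and a short line at the mean of each tissue. The 8 genes on the left, from Nkx2-2 to Hoxb1, are higher in both neural tube samples, and the 8 on the right, from Des to Etv4, are lower.

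The comparison of the 2 tissues describes what distinguishes them in normal embryos. Of 28940 genes tested, 709 passed an adjusted p of 0.05 (2.45%), of which 222 were higher in neural tube (0.767%) and 487 were lower (1.68%). Every one of the 709 had both neural tube values on the same side of both paraxial values, as did 35.2% of all genes tested. The 222 higher genes had a median difference of 1.57 and the 487 lower genes one of -1.66. Beyond a difference of 2 (a fold of 4) there were 66 higher and 199 lower genes, and beyond 4 (a fold of 16) there were 2 and 27. The smallest difference that passed was 0.75. The median over all genes was 0.00, with 50.5% of genes above 0. Of the higher genes, 86 were not well above background on either paraxial array, and 43 of the lower genes were not on either neural tube array. Among all genes tested, 286 were well above background on both neural tube arrays and neither paraxial array, and 78 the reverse. A gene dim in 1 tissue could enter the test by being bright in the other, so the filter favoured its direction. Intervals of intergenic noncoding RNA gave 61 of the calls out of 4255 tested, 22 of them higher. Higher genes made up 31.3% of the calls, and 41.3% when arrays were scaled to their medians. The count depended on the embryo block and on the arrays: it was 4 with no replicate block and 51 when the block was fixed rather than random. Leaving out 1 array gave 69 (neural tube 1), 111 (neural tube 2), 566 (paraxial tissue 1, with 303 higher and 263 lower) or 40 (paraxial tissue 2). Leaving out wild-type embryo 1 or 2 gave 90 or 31, and leaving out either mutant embryo gave 181.

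Both embryos were compared gene by gene. The difference in embryo 1 and that in embryo 2 had a Pearson r of 0.539 and a Spearman rho of 0.400 across the 28940 genes, which are not independent replicates, and 60.7% of genes had the same sign in both. The SD of the differences was 0.566 in embryo 1 and 0.814 in embryo 2. Differences were thus spread more widely in embryo 2.

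**Figure D2:**
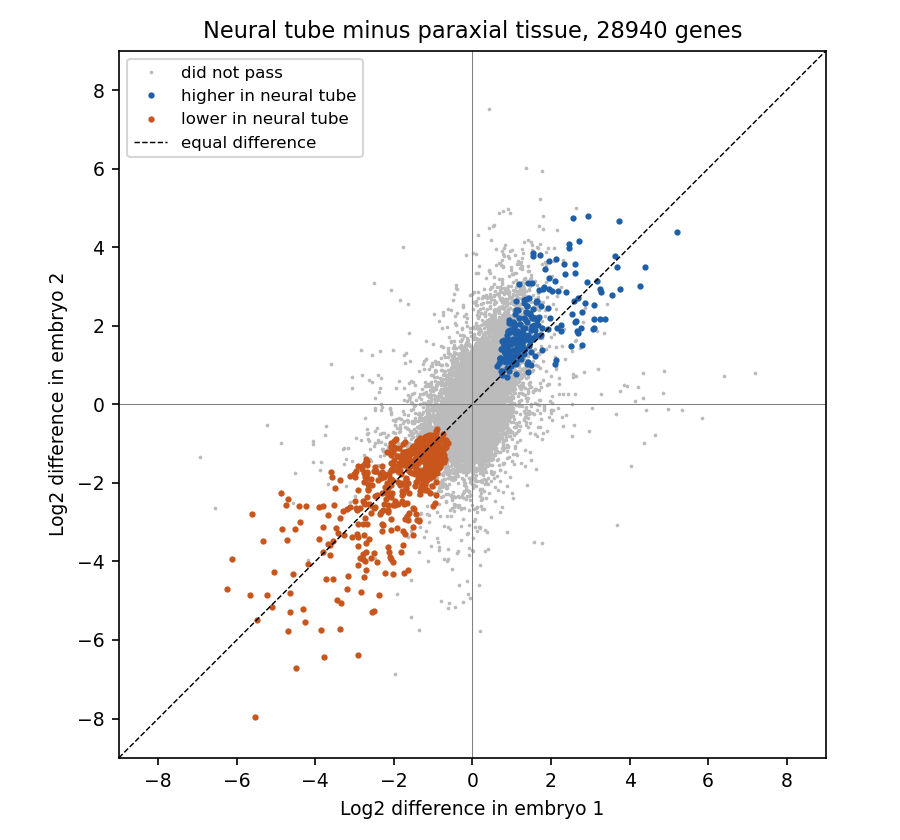
Log2 difference of each of 28940 genes in embryo 1 (horizontal) and embryo 2 (vertical), with the 222 genes that were higher in neural tube in blue, the 487 that were lower in orange, the rest in grey and a dashed line of equal difference. Called genes lie in the quadrants where both embryos share a sign, and grey points spread further on the vertical axis than on the horizontal one.

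Of 10 tested genes of the floor plate and of the most ventral progenitors, 4 were higher in neural tube and 0 lower, with 2 members below 0. The median difference was 1.47 against 0.00 over all genes, and 0.83 without paraxial tissue 1 or 0.77 without wild-type embryo 1. Nkx2-2 differed by 2.53 ± 0.21 (SE; adjusted p = 0.00716) and Shh by 2.13 ± 0.19 (adjusted p = 0.00965). Foxa2, the forkhead factor that specifies floor plate, read 10.46 and 11.50 in neural tube and 5.24 and 7.13 in paraxial tissue, a difference of 4.80 ± 0.44 (adjusted p = 0.00965). The probe that stands for Foxa2 was well above background on 1 of the 2 paraxial arrays, so the size of this difference is uncertain. Ferd3l, a bHLH factor of the floor plate, gave the same difference in each embryo, 0.75 and 0.75, from values of 10.04 and 10.00 against 9.28 and 9.25 (0.75 ± 0.14, adjusted p = 0.0487). Of the 6 members that did not pass, the guidance cue Ntn1 stood lowest (-0.45 ± 0.31), and its 2 probes disagreed in sign. With 1 array or embryo left out, 0 to 3 members of the list passed, 1 did with a fixed replicate block and 0 with none.

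Shown here are the 250 bases before the start of 3 members of this list. They have the smallest p among the members that the RefSeq promoter table (build GRCm38.p6) holds. Shh had a smaller p than Foxa2 and Ferd3l, but that table holds no window for it. Each sequence is written 5′ to 3′ on the strand of its gene, and capitals mark any match to the motifs searched. Nkx2-2 lies at chr2:147186403-147186652 (minus strand), Foxa2 at chr2:148046970-148047219 (minus strand, the first of 3 starts in the table) and Ferd3l at chr12:33928175-33928424 (plus strand).
Nkx2-2: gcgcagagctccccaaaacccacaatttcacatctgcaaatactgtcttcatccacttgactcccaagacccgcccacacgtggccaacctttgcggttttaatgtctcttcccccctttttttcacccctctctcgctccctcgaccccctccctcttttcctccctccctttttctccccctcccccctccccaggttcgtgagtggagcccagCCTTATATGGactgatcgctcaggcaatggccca
Foxa2: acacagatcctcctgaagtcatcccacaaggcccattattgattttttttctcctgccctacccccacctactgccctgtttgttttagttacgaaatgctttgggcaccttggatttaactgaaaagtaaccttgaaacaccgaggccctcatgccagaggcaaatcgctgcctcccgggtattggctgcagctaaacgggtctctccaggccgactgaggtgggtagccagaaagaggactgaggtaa
Ferd3l: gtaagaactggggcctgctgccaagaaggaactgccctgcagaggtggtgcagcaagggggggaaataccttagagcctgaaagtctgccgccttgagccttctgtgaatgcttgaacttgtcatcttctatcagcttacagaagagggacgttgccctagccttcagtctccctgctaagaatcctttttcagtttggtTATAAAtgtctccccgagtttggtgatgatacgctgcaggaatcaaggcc
The motifs were the E-boxes CAGCTG and CACCTG, the TATA element TATAAA, the forkhead motif TGTTTAC, the Gli motif TGGGTGGTC, the CArG box and the MEF2 box, on both strands. The CArG box and the TATA element can overlap in sequence. Nkx2-2 held 1 CArG box, whose first base lay 34 bases before the start, and Ferd3l held 1 TATAAA at 50 bases. Foxa2 held no match in this window. Of the first windows of 27025 genes in the table, 1.40% held a CArG box, 12.97% TATAAA, 3.09% TGTTTAC and 0.211% TGGGTGGTC. A match is a description of letters, not a measured site.

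Progenitors of the other ventral domains gave the highest median of the 33 lists, 1.88 over 12 members, with 3 higher and 0 lower. Olig2, which specifies motor neuron progenitors, read 11.82 and 13.97 in neural tube and 9.38 and 10.00 in paraxial tissue. Its difference of 3.21 ± 0.54 (SE; adjusted p = 0.0377) was the largest among RefSeq genes that passed with a probe well above background on all 4 arrays. Nkx6-1, a homeodomain factor of ventral progenitors, read 12.43 and 13.24 against 10.62 and 10.26 (2.40 ± 0.29, adjusted p = 0.0154). Dbx1, another progenitor factor of this list, read 10.18 and 10.88 against 9.08 and 8.26 (1.86 ± 0.33, adjusted p = 0.0415). In these 3 genes embryo 2 gave the larger difference. Foxn4, a factor of V2 interneuron progenitors, stood at 1.90 ± 0.39 (adjusted p = 0.0583) without passing. Nkx6-2 was not well above background in paraxial tissue and did not pass, with a bound of at least 3.17-fold (adjusted p = 0.0525). The eye and spinal cord factor Pax6 stood at 2.05 ± 0.43 (adjusted p = 0.0619). In the fits with an array or embryo left out, 0 to 2 members passed. Median scaling gave 7 and quantile scaling 6, while a fixed replicate block, no replicate block and a random block on the wild-type arrays alone gave 0, and no filter gave 1.

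On the dorsal side, 2 of 21 tested members were higher and 0 lower, with a median of 0.42. That median was 0.59 in embryo 1 and 1.01 in embryo 2, and it was 0.91, 0.66 and 0.94 without neural tube 1, neural tube 2 and paraxial tissue 1. Wnt3a, a roof plate Wnt ligand, read 6.48 and 7.74 in neural tube and 4.53 and 4.52 in paraxial tissue. It was well above background on 1 of 2 neural tube arrays and on neither paraxial array (limma adjusted p = 0.015). Its bound of 1.46-fold uses the dim value of neural tube 1, so the size of its difference is uncertain. Wnt3a entered the test only through mutant arrays. With a filter on the wild-type groups alone, 1 of 20 dorsal members was higher. The roof plate ligand Wnt1 stood at 0.81 ± 0.16 (SE; adjusted p = 0.0535) and the roof plate determinant Lmx1a at 2.31 ± 0.48 (adjusted p = 0.0607). Lmx1a was well above background on 1 of the 2 paraxial arrays, so the size of its difference is uncertain. Rspo3, a secreted Wnt agonist of the same list, had the opposite sign at -1.44 ± 0.31 (adjusted p = 0.0644). Pax3 and Pax7, which mark dorsal neural tube and dermomyotome alike, stood at 0.31 ± 0.26 and 0.93 ± 0.34, and neither passed. Over the fits without 1 array or embryo, 0 to 1 member passed.

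General neural progenitor genes gave 2 higher and 0 lower of 24, with a median of 0.82. Lrp2, an endocytic receptor of the neuroepithelium, read 9.88 and 11.32 in neural tube and 8.35 and 8.22 in paraxial tissue (2.31 ± 0.42, SE; adjusted p = 0.0437). The Wnt receptor Fzd3 read 11.94 and 11.72 against 11.19 and 10.87 (0.80 ± 0.15, adjusted p = 0.0499). The SoxB1 factor Sox2 read 10.99 and 10.64 against 9.49 and 8.41, a difference of 1.87 ± 0.43 that did not pass (adjusted p = 0.0805). Both neural tube values of Sox2 lay above both paraxial values, and the paraxial value was higher in embryo 1. The progenitor factor Rfx4 stood at 2.18 ± 0.44 (adjusted p = 0.0573) and the planar polarity cadherin Celsr1 at 1.503 ± 0.29 (adjusted p = 0.0533). The count was 0 to 4 over the fits with an array or embryo left out, 8 with median scaling and 14 with normexp background correction. It was 0 with a fixed replicate block, with none, on the wild-type arrays alone and with no filter.

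Proneural factors and Notch genes gave 3 higher and 0 lower of 22, with a median of 1.27, which was 0.84 without neural tube 2, 0.78 without paraxial tissue 2 and 0.73 without wild-type embryo 2. Lfng, the Fringe enzyme that modifies Notch, read 15.01 and 15.00 in neural tube and 13.78 and 13.49 in paraxial tissue (1.37 ± 0.20, SE; adjusted p = 0.0245). The Notch target Hey1 read 12.23 and 12.43 against 11.51 and 11.59 (0.78 ± 0.14, adjusted p = 0.0437). Nrarp, a feedback inhibitor of Notch, read 13.09 and 13.11 against 11.99 and 10.72 (1.75 ± 0.33, adjusted p = 0.0497). Lfng and Nrarp were nearly equal on the neural tube arrays and Hey1 was close within each tissue. Neurog2, a proneural factor, stood at 1.89 ± 0.40 (adjusted p = 0.0631), and Dll3, a divergent Notch ligand, at 1.49 ± 0.33 (adjusted p = 0.0698). With 1 array or embryo left out, 0 to 2 members passed.

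Motor neuron genes had a median of 1.30 over 18 members, with 1 higher and 0 lower. The median was 0.59 in embryo 1 and 1.97 in embryo 2, and it was 1.97, 0.79 and 0.65 without paraxial tissue 1, neural tube 2 and paraxial tissue 2. Mnx1, the motor neuron homeodomain factor, read 9.003 and 10.64 in neural tube and 5.28 and 5.97 in paraxial tissue, where it was not well above background on either array. It was higher by at least 9.56-fold (adjusted p = 0.0204), the largest such bound on this side. Lhx3 and Lhx4, LIM factors of early motor neurons, stood at 1.94 ± 0.48 and 2.02 ± 0.47 (SE; adjusted p = 0.0933 and 0.079), and Onecut2 at 1.44 ± 0.32 (adjusted p = 0.0741). Isl1, shared by motor and sensory neurons, read 9.68 and 11.54 against 10.09 and 8.51, with opposite signs in the embryos (-0.41 and 3.03). Of 22 interneuron genes, 2 were higher and 0 lower, with a median of 0.84. Vsx1, a V2 interneuron factor, read 7.51 and 6.74 against 4.42 and 4.56, not well above background in paraxial tissue (at least 1.47-fold, adjusted p = 0.025). The zinc finger factor Sall3 read 8.43 and 9.06 against 6.58 and 5.61, with the paraxial values again not well above background (at least 4.53-fold, adjusted p = 0.0437). Foxp2, on the same list, had the opposite sign without passing, -1.17 ± 0.27. Over the fits without 1 array or embryo, 0 to 2 motor neuron and 0 to 1 interneuron members passed.

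Genes that every neuron uses did not pass: 0 of 30 members were called higher or lower, although 29 lay above 0 and the median was 1.06. Elavl3, a neuronal RNA-binding protein, read 14.88 and 15.02 in neural tube and 14.14 and 12.42 in paraxial tissue (1.67 ± 0.47, SE; adjusted p = 0.129). The microtubule regulator Stmn2 read 13.43 and 13.53 against 12.99 and 10.93 (1.52 ± 0.51, adjusted p = 0.189). In both genes the paraxial tissue of embryo 1 was close to the neural tube level and that of embryo 2 was not. The list median was 0.51 in embryo 1 and 1.59 in embryo 2. Tubb3, the neuronal tubulin, differed by 0.05 ± 0.19. Members whose tissues did not overlap numbered 22, against 35.2% of all genes. Without paraxial tissue 1 the median was 1.62 and 3 members passed, and without paraxial tissue 2 the median was 0.47.

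Markers of sensory ganglia, which lie beside the tube, moved with this contrast between embryos. Their median was -0.45 in embryo 1 and 0.90 in embryo 2, over 13 tested members of 16, of which 0 were higher and 1 lower. The list mean, taken about the mean of the 4 wild-type arrays, was 0.58 on paraxial tissue 1 and -0.74 on paraxial tissue 2, against 0.02 and 0.14 on the neural tube arrays. The same mean for pan-neuronal genes was 0.14 and -1.18 in paraxial tissue and 0.70 and 0.34 in neural tube. Ntrk3, a neurotrophin receptor of sensory neurons, read 12.37 and 10.21 in paraxial tissue, and the ganglion synuclein Sncg 11.76 and 8.76. The part of ganglion cells in the smaller neuronal difference of embryo 1 was not tested. Neural crest genes had a median of 0.04, with 8 of 15 above 0, and gave 0 higher and 2 lower, the mesenchymal repressor Snai2 (-2.24 ± 0.37, SE; adjusted p = 0.0351) and the transcription factor Ets1 (-1.39 ± 0.26, adjusted p = 0.0489). Erbb3, the neuregulin receptor of crest-derived glia, read 9.31 and 11.30 in neural tube and 12.98 and 13.32 in paraxial tissue without passing (adjusted p = 0.0567), and Sox10 read 12.13 and 13.82 against 14.81 and 14.59. Both were higher in neural tube 2 than in neural tube 1. Fabp7, a fatty acid binding protein of glial precursors, lay on the other side with 12.72 and 12.63 against 11.70 and 9.52, without passing (adjusted p = 0.104). With 1 array or embryo left out, 0 to 1 crest gene passed in each direction.

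Outside the lists, the genes with the largest differences that were measured on all 4 arrays included further neural genes. Prdm8, a neuronal transcriptional repressor, read 11.20 and 12.09 in neural tube and 9.49 and 8.30 in paraxial tissue (2.75 ± 0.51, SE; adjusted p = 0.048). Prmt8, an arginine methyltransferase of the nervous system, read 14.01 and 13.85 against 12.56 and 11.14 (2.08 ± 0.39, adjusted p = 0.0473). The POU factor Pou3f3 read 13.54 and 13.46 against 12.18 and 10.78 (2.02 ± 0.38, adjusted p = 0.0482). Prmt8 and Pou3f3 shared the pattern of close neural tube values and paraxial values more than 1 apart. The apical polarity protein Crb2 read 10.71 and 11.37 against 8.998 and 9.15 (1.96 ± 0.27, adjusted p = 0.0204), and Sema5b, a semaphorin, 14.29 and 14.23 against 12.90 and 11.73 (1.94 ± 0.37, adjusted p = 0.0495). Vldlr, a reelin receptor, differed by 1.87 ± 0.23 (adjusted p = 0.0154). Tlr1, better known from innate immunity, also differed by 1.87 ± 0.26 (adjusted p = 0.021). Among genes not well above background in paraxial tissue, the natriuretic peptide Nppc was higher by at least 6.17-fold (adjusted p = 0.0133), the potassium channel Kcnj10 by at least 4.55-fold (adjusted p = 0.0136) and Ccdc151, a protein of motile cilia, by at least 4.17-fold (adjusted p = 0.015).

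Of the 33 lists, the one of muscle genes held the most lower calls in the fit to all arrays. Of 47 tested genes of the sarcomere and muscle membrane, 32 were lower in neural tube and 0 higher, with a median of -2.31 against 0.00 over all genes and 1.68% of all genes called lower. Des differed by -4.13 ± 0.32 (SE; adjusted p = 0.00716). The troponin Tnnt2 read 7.61 and 9.47 in neural tube and 13.26 and 14.34 in paraxial tissue (-5.26 ± 0.64, adjusted p = 0.0154). Skeletal actin Acta1 read 9.85 and 11.47 against 14.91 and 15.74 (-4.66 ± 0.50, adjusted p = 0.0116), and cardiac actin Actc1 7.80 and 10.30 against 13.13 and 13.78 (-4.41 ± 0.55, adjusted p = 0.0157). Each of these 4 genes was higher in neural tube 2 than in neural tube 1, and higher in paraxial tissue 2 than in paraxial tissue 1. The myosin light chain Myl1 read 7.98 and 8.82 against 12.63 and 13.62 (-4.73 ± 0.39, adjusted p = 0.00727). The slow troponin Tnni1 differed by -4.45 ± 0.41 (adjusted p = 0.00965) and embryonic myosin Myh3 by -4.09 ± 0.49 (adjusted p = 0.015). Titin, Ttn, the giant spring protein of the sarcomere, differed by -5.47 ± 0.58 (adjusted p = 0.011), with its probe well above background on 1 of the 2 neural tube arrays. The Z-disc protein Actn2 was nearly equal in both neural tube samples, 7.59 and 7.58, against 10.77 and 11.95 (-3.78 ± 0.43, adjusted p = 0.0136). The kelch protein Klhl41 differed by -4.00 ± 0.42 (adjusted p = 0.011), and the muscle cadherin Cdh15 by -3.78 ± 0.34 (adjusted p = 0.00965).

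Several of the genes lower in neural tube, not all of them on the muscle lists, were not well above background on either neural tube array. Fitm1, a lipid droplet protein of muscle, was lower by at least 12.045-fold (adjusted p = 0.00716), Sln, the regulator of the sarcoplasmic reticulum calcium pump, by at least 11.9-fold (adjusted p = 0.00965) and the M-band protein Myom3 by at least 10.0-fold (adjusted p = 0.0182). Vgll3, a cofactor of TEAD factors, was lower by at least 8.42-fold (adjusted p = 0.015) and Lhfpl1 by at least 7.36-fold (adjusted p = 0.00414). The sarcomere count was 5, 11 and 2 without neural tube 1, neural tube 2 and paraxial tissue 2, 29 without paraxial tissue 1, 8 or 1 without wild-type embryo 1 or 2, and 20 without either mutant embryo. A fixed replicate block gave 12 and no replicate block gave 0. The median stayed between -3.12 and -1.97 over all alternatives.

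The 250 bases before the start of Des, Myh15 and Myl4 are shown in the same notation. These are the 3 sarcomere members with the smallest p that the promoter table holds. Des lies at chr1:75360042-75360291, Myh15 at chr16:49057150-49057399 and Myl4 at chr11:104550413-104550662, all on the plus strand of GRCm38.p6.
Des: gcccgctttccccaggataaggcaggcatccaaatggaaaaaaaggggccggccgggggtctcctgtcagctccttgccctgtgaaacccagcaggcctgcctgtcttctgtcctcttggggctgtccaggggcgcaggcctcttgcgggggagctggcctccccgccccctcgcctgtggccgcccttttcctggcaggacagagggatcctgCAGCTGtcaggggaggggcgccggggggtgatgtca
Myh15: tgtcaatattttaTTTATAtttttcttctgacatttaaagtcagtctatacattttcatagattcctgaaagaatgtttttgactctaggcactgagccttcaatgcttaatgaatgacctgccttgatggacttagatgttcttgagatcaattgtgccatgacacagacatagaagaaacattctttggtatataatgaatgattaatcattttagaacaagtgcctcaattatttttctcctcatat
Myl4: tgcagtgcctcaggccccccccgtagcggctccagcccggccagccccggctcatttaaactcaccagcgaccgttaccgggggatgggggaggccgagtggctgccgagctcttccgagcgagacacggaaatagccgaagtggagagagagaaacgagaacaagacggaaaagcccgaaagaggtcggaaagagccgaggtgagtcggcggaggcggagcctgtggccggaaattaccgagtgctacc
Des held 1 CAGCTG E-box, the core that MyoD-family factors bind, with its first base 36 bases before the start. Myh15 held 1 TATAAA, read on the opposite strand, at 237 bases, and Myl4 held no match. Of the 40 tested sarcomere genes with a window in the table, 18 (45%) held CAGCTG, against 12.8% of all genes, and 11 (27.5%) held CACCTG, against 17.1%. A MEF2 box stood in 5 (12.5%), against 3.01% of all genes, and a CArG box in 4 (10%), against 1.40%. These shares describe letters in a short window, and the list was not chosen at random.

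**Figure D3:**
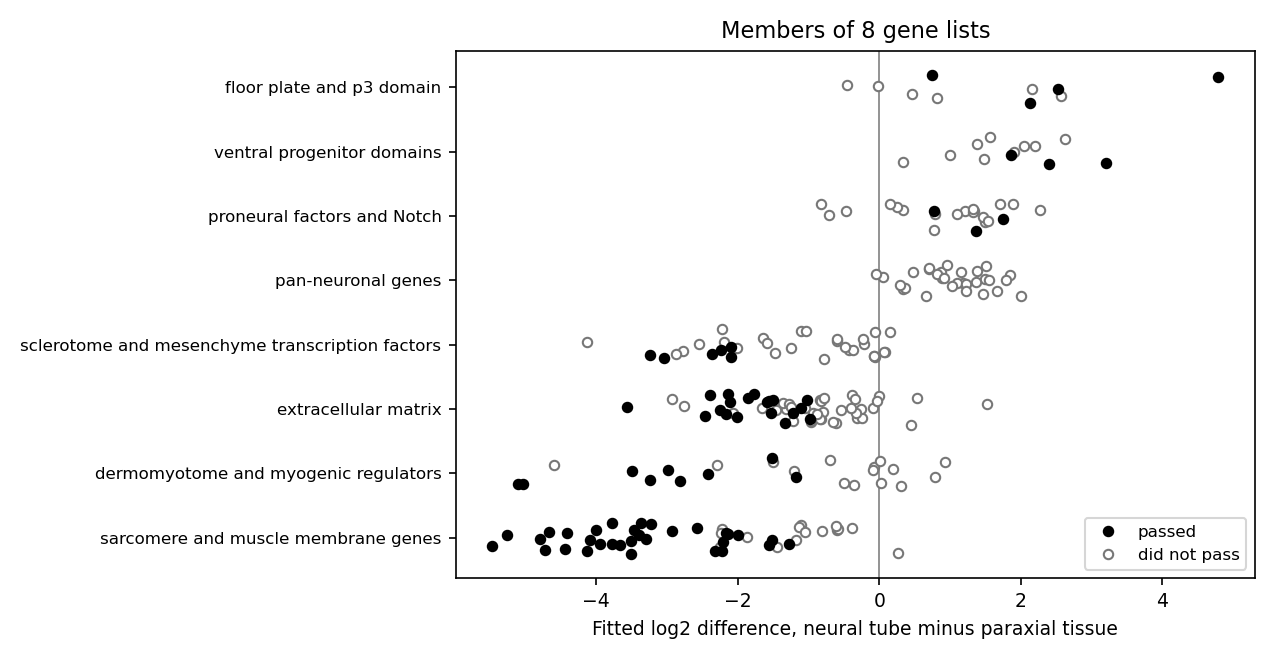
Fitted log2 difference (horizontal axis) of each tested member of 8 gene lists, with filled points for members that passed and open points for those that did not. Floor plate and ventral progenitor members lie mostly above 0, 29 of 30 pan-neuronal members lie above 0 and none passed, and nearly all sarcomere members lie below 0.

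Regulators of dermomyotome and muscle gave 9 lower and 0 higher of 24 tested, from a list of 30. The median was -1.19, and it was -0.78 without neural tube 2, -0.62 without paraxial tissue 2 and -0.64 without wild-type embryo 2. The differentiation factor Myog read 7.08 and 7.57 in neural tube and 9.79 and 11.34 in paraxial tissue (-3.24 ± 0.37, SE; adjusted p = 0.0136). Mef2c, its cofactor, read 9.34 and 10.17 against 12.08 and 13.05 (-2.81 ± 0.25, adjusted p = 0.00965). Hgf, the ligand of the Met receptor that guides migrating muscle precursors, read 4.66 and 3.94 against 8.43 and 10.38 and was lower by at least 7.59-fold (adjusted p = 0.0245). Mstn, the secreted brake on muscle growth, was lower by at least 2.11-fold (adjusted p = 0.0154). Both were below the background threshold on both neural tube arrays. Dact1, an intracellular Wnt modulator, differed by -1.52 ± 0.19 (adjusted p = 0.0154). Dmrt2, a dermomyotome factor, read 6.45 and 10.64 against 12.58 and 14.57 (-5.03 ± 0.77, adjusted p = 0.0274), and neural tube 2 alone of the neural tube arrays was well above background. Myod1, the myogenic determination factor, read 11.89 and 11.84 in neural tube and 11.83 and 12.05 in paraxial tissue, a difference of -0.08 ± 0.16 (adjusted p = 0.844). The tissues overlapped for Myod1 and did not for Myog. Myf5 and Myf6, on the same list, did not pass the background filter in any group and were not tested. Dmrt2, Myod1, Ttn, Pax3, Pax6, Pax7, Sox2, Sox10, Stmn2, Tubb3 and the other members named outside the naming rule were picked after their values were seen. Over the fits without 1 array or embryo, 0 to 5 members of this list passed, and a fixed replicate block left 1.

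Transcription factors of sclerotome and mesenchyme gave 6 lower and 0 higher of 34, with a median of -1.18. Twist1 differed by -3.05 ± 0.33 (SE; adjusted p = 0.0122). Its relative Twist2 read 9.76 and 11.43 in neural tube and 13.44 and 14.24 in paraxial tissue (-3.24 ± 0.33, adjusted p = 0.0103). Foxc2 and Foxc1, forkhead factors of paraxial mesoderm, read 10.11 and 10.91 against 12.44 and 12.78 (-2.10 ± 0.21, adjusted p = 0.0103), and 9.37 and 10.26 against 11.85 and 11.96 (-2.09 ± 0.28, adjusted p = 0.0182). Tcf15, the bHLH factor of epithelial somites, differed by -2.36 ± 0.35 (adjusted p = 0.0245). All 5 were higher in neural tube 2 than in neural tube 1. The sclerotome factor Pax1 read 5.70 and 11.35 in neural tube against 12.63 and 12.70 and did not pass (adjusted p = 0.148). It was well above background on 1 of the 2 neural tube arrays, so the size of its difference is uncertain. Sox9, the chondrocyte factor, differed by 0.09 ± 0.29. The list mean was -1.24 and -0.10 on neural tube 1 and 2, against 0.46 and 0.88 in paraxial tissue. The part of mesenchymal cells in the neural tube capture of embryo 2 was not tested. Counts were 7 without neural tube 2, 3 without paraxial tissue 1, 2 without either wild-type embryo, 1 without either mutant embryo, 0 without neural tube 1 or paraxial tissue 2, and 1 with a fixed replicate block.

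Extracellular matrix genes gave 19 lower and 0 higher of 56, with a median of -1.03. Col1a1 differed by -2.14 ± 0.15 (SE; adjusted p = 0.00716), with embryo differences of -2.16 and -2.12. Its partner chain Col1a2 read 13.86 and 14.27 in neural tube and 15.49 and 15.66 in paraxial tissue (-1.51 ± 0.16, adjusted p = 0.011). The adhesion protein Tgfbi read 10.01 and 10.81 against 12.42 and 12.75 (-2.17 ± 0.21, adjusted p = 0.0103). Timp3, an inhibitor of metalloproteinases, read 9.63 and 9.70 against 11.07 and 11.37 (-1.56 ± 0.15, adjusted p = 0.0103), and the transmembrane collagen Col23a1 differed by -1.78 ± 0.18 (adjusted p = 0.0103). Fap, a serine protease of activated fibroblasts, read 7.49 and 9.75 against 12.02 and 12.93 (-3.86 ± 0.44, adjusted p = 0.0136). Dnm3os, the noncoding transcript that hosts several microRNAs of mesenchyme, read 8.80 and 10.56 against 13.64 and 13.74 (-4.01 ± 0.69, adjusted p = 0.0393). Fap and Dnm3os are outside the matrix list. The matrix count was 10 without neural tube 2, 6 without paraxial tissue 1, 4 without either mutant embryo, 1 without neural tube 1 or paraxial tissue 2, 0 without either wild-type embryo, and 1 with a fixed replicate block.

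**Figure D4:**
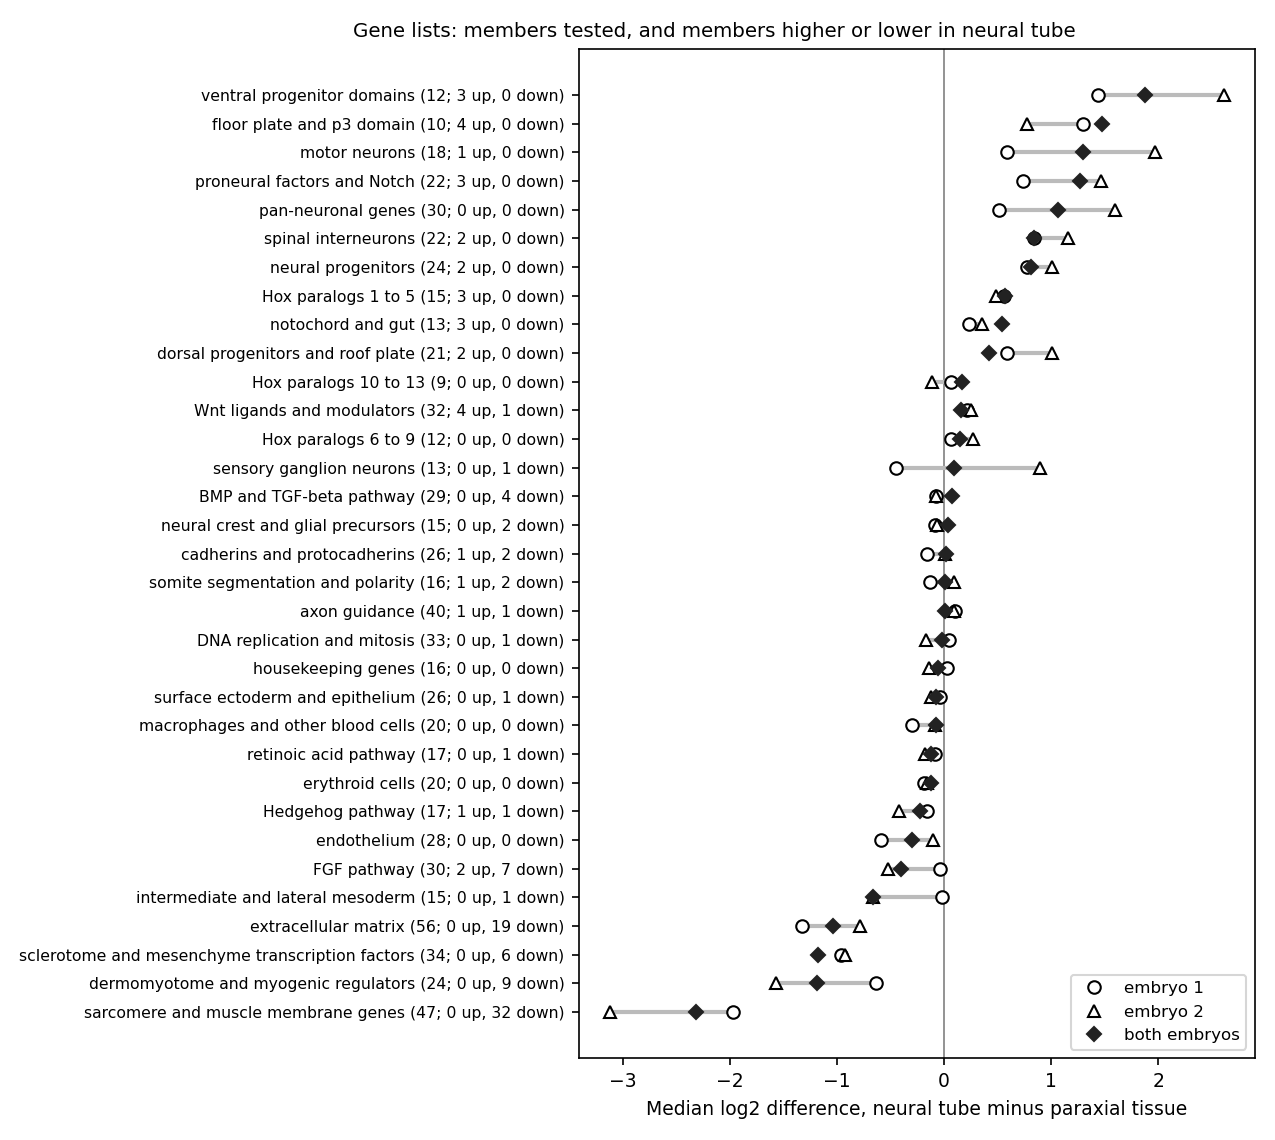
Median log2 difference (horizontal axis) of each of 33 gene lists, in embryo 1 (circles), in embryo 2 (triangles) and in the fit to both (diamonds), with the number of members tested, higher and lower beside each name. Lists of ventral and neuronal genes lie at the top with larger medians in embryo 2 for most of them, and muscle, sclerotome and matrix lists lie at the bottom.

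Markers of other cells that could share the capture gave few calls outside the notochord and gut list. Shares over all genes tested were 0.767% higher and 1.68% lower, so counts of 0 or 1 here do not describe the lists. Of 28 endothelial genes 0 passed (median -0.30), of 20 erythroid genes 0 (median -0.13) and of 20 macrophage genes 0 (median -0.08). Members below 0 numbered 24, 17 and 11 in these lists, in that order, while 50.5% of all genes lay above 0. The endothelial factor Erg read 8.16 and 9.03 in neural tube and 9.44 and 10.27 in paraxial tissue without passing (adjusted p = 0.0666). The embryonic globin Hba-x read 16.81 and 16.50 against 16.90 and 17.05, so red cell transcripts were strong in both tissues. Of 26 genes of surface ectoderm 1 was lower, Fgfbp1, an FGF carrier of epithelia (-1.67 ± 0.27, SE; adjusted p = 0.0322). Notochord and gut genes gave 3 higher of 13, of which Shh and Foxa2 also belong to the floor plate. The third, the forkhead factor Foxa1, read 7.12 and 7.22 against 4.75 and 4.37, not well above background in paraxial tissue (at least 1.52-fold, adjusted p = 0.0154). T, the notochord T-box factor, read 7.85 and 10.88 in neural tube and 7.69 and 7.36 in paraxial tissue, so the neural tube capture of embryo 2 stood apart (adjusted p = 0.252). Intermediate and lateral mesoderm gave 1 lower of 15, the T-box factor Tbx2 (-1.995 ± 0.28, adjusted p = 0.0224). Wt1, a factor of the urogenital ridge, read 10.39 and 13.01 in paraxial tissue and 7.91 and 9.10 in neural tube without passing (adjusted p = 0.0724). Without neural tube 2 or wild-type embryo 2, 1 endothelial member was lower, and without paraxial tissue 1, 2 members each passed in the ectoderm and the intermediate mesoderm lists.

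Signalling genes passed in both directions. Of 32 Wnt genes, 4 were higher and 1 lower, against 0.767% and 1.68% of all genes tested. The single lower call therefore describes 1 gene, not the list. The ligands Wnt3 (at least 2.14-fold, adjusted p = 0.0103) and Wnt3a, above, were not well above background in paraxial tissue, nor was the R-spondin receptor Lgr5 (at least 2.04-fold, adjusted p = 0.0445). Wnt7a, a ligand of the neural epithelium, read 13.34 and 13.06 in neural tube and 12.24 and 12.03 in paraxial tissue (1.06 ± 0.19, SE; adjusted p = 0.0419). The nuclear effector Lef1 was the lower one, with 12.01 and 12.39 against 13.22 and 13.80 (-1.31 ± 0.17, adjusted p = 0.0183). Of 30 FGF genes, 2 were higher and 7 lower, against the same shares of all genes. The ligand Fgf4 read 8.45 and 8.82 against 10.72 and 11.91 (-2.68 ± 0.28, adjusted p = 0.011), and the targets Etv4 and Etv5 differed by -1.32 ± 0.19 (adjusted p = 0.0231) and -1.47 ± 0.19 (adjusted p = 0.0182). Flrt2, a membrane partner of FGF receptors, differed by -2.01 ± 0.19 (adjusted p = 0.00969). The receptor Fgfr3 went the other way, with 16.62 and 16.28 against 15.35 and 14.80 (1.38 ± 0.24, adjusted p = 0.0399), as did the intracellular factor Fgf14 (1.64 ± 0.24, adjusted p = 0.024). With 1 array or embryo left out, Wnt calls ran from 0 to 2 higher and FGF calls from 0 to 5 lower.

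Of 29 BMP and TGF-beta genes, 4 were lower and 0 higher. They were the receptor Tgfbr2 (-1.34 ± 0.16, SE; adjusted p = 0.015) and the ligands Tgfb2 (-1.98 ± 0.30, adjusted p = 0.0253), Tgfb3 (-0.82 ± 0.15, adjusted p = 0.0433) and Bmp5 (-3.56 ± 0.67, adjusted p = 0.0484). Bmp5 read 4.95 and 7.71 in neural tube, where 1 of 2 arrays was well above background, against 9.81 and 9.96. In the Hedgehog list of 17, 1 member was higher and 1 lower, with a median of -0.22. Over all genes tested, 0.767% were called higher and 1.68% lower, so these Hedgehog calls describe single genes, not the list. Scube2, which helps release Hedgehog ligand, read 13.67 and 14.34 against 12.94 and 12.94 (1.07 ± 0.20, adjusted p = 0.0478). The ligand trap Hhip read 7.34 and 8.83 against 9.37 and 10.04 (-1.62 ± 0.29, adjusted p = 0.0433). The receptor Ptch1, a target of the pathway, read 12.80 and 13.05 against 12.71 and 12.95, a difference of 0.10 ± 0.15 (adjusted p = 0.788), and the effector Gli1 stood at -0.98 ± 0.40 (adjusted p = 0.268). Of 17 retinoic acid genes 1 was lower, the retinaldehyde reductase Dhrs3 (-1.45 ± 0.23, adjusted p = 0.0308). That single call also stands against 1.68% of all genes called lower, and the list median was -0.13. The carrier Crabp2 stood at 0.97 ± 0.26 without passing. Left-out fits gave 0 to 2 lower BMP and TGF-beta genes and 0 to 1 lower Hedgehog gene, with no Hedgehog gene higher.

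Hox genes encode position along the body axis, and paralog groups 1 to 5 stand for the more anterior ones. Of 15 tested, 3 were higher and 0 lower, with a median of 0.57 and 14 above 0. Hoxb1 read 9.24 and 9.18 in neural tube and 4.86 and 5.69 in paraxial tissue, where it was not well above background (at least 6.24-fold, adjusted p = 0.0406). Hoxd3 read 14.58 and 14.35 against 13.64 and 13.001 (1.15 ± 0.21, SE; adjusted p = 0.0447). Hoxb2 read 11.26 and 11.50 against 10.42 and 10.04 (1.15 ± 0.22, adjusted p = 0.0499). Groups 6 to 9 and 10 to 13 gave 0 calls among 12 and 9 members, with medians of 0.15 and 0.16. Hoxc12 stood furthest, at 1.54 ± 0.57, and rested on neural tube 2 (10.83, against 8.54 in neural tube 1). Over the fits without 1 array or embryo, 0 to 1 member of groups 1 to 5 passed.

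Axon guidance genes gave 1 higher and 1 lower of 40. Over all genes tested, 0.767% were called higher and 1.68% lower, so these guidance calls describe single genes, not the list. The midline repellent Slit1 read 13.71 and 13.99 in neural tube and 12.27 and 12.52 in paraxial tissue (1.46 ± 0.19, SE; adjusted p = 0.0165). The repellent Sema3a read 11.98 and 12.56 against 13.26 and 13.78 (-1.25 ± 0.22, adjusted p = 0.0397). Of 26 cadherins, the protocadherin Pcdh8 was higher (1.69 ± 0.31, adjusted p = 0.0471), and Cdh15 and Pcdh18 were lower (Pcdh18 by -1.01 ± 0.17, adjusted p = 0.039). Of 33 replication and mitosis genes, 1 was lower, the cell cycle inhibitor Cdkn1a (-1.56 ± 0.23, adjusted p = 0.024), whose 2 probes disagreed in sign. Pcna, the sliding clamp of replication, stood at 0.39 ± 0.20, and the median of the list was -0.02. A single lower call among 33 is near the 1.68% of all genes called lower. Of 16 housekeeping genes 0 passed, with a median of -0.05. Neither guidance call passed with any array or embryo left out. Somite segmentation genes gave 1 higher and 2 lower of 16, namely Lfng, Foxc1 and Foxc2.

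Last, the tissue difference was compared between genotypes by the contrast of wild-type minus mutant differences. By limma 0 genes passed (0%), as in each other fit that kept all arrays, while 1495 had an unadjusted p below 0.05 and the smallest adjusted p was 0.0929. Without paraxial tissue 2, 15 genes passed, and without mutant embryo 1, 6 did. Of the 709 wild-type calls, 687 (96.9%) had the same sign in mutants, against 68.4% of all genes tested. Among named genes with the smallest p of this contrast, the muscle genes Myoz2 and Myh15 differed by -3.95 ± 0.32 and -3.36 ± 0.26 in wild type (SE) and by -0.22 ± 0.32 and -0.27 ± 0.26 in mutants, with an adjusted p of 0.273 for each contrast. Both were below the background threshold in wild-type neural tube, so the sizes of their wild-type differences are uncertain. S1pr5, a sphingosine phosphate receptor below that threshold in wild-type paraxial tissue, was higher in wild-type neural tube by at least 1.58-fold (adjusted p = 0.00716) and stood at -0.09 ± 0.18 in mutants (contrast adjusted p = 0.273). Cpne6, a copine of neurons, stood at 0.67 ± 0.27 in wild type and 4.36 ± 0.27 in mutants (contrast adjusted p = 0.273).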

How the data were processed

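Laser-captured RNA was hybridised to 1-colour Agilent arrays, 1 per tissue and embryo. Per the file headers, the authors extracted the red channel with detrending and surrogate values on. The tool was Agilent Feature Extraction (version 11.0.1.1), per the submitters' processing notes. The deposited values are linear processed intensities, not pooled. Probe positions in the files refer to mm9, for which no annotation was used here, so exons and untranslated regions are not named. All 8 arrays lay on 1 slide, replicate 1 in its first row and replicate 2 in its second, so embryo and row cannot be told apart.

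Control and outlier spots were left out (55664 probes remained), and log2 intensities were scaled to the 75th percentile of each array. A probe entered if both arrays of any of the 4 groups were well above background, and the brightest stood for each of 28940 genes. RefSeq named 26045 probes by accession and 3200 by symbol, and 26419 kept the name in the files. limma (version 3.58.1, R version 4.3.3) fitted 4 group means with a random replicate block for the embryo (correlation 0.603) and Benjamini-Hochberg adjustment over all genes. The labels pair both tissues through their embryo, and their deviations from the group means correlated across genes (r = 0.562). For a gene not well above background on either array of a tissue, an "at least" fold sets the brighter mean against, per array, the larger of that signal and the dimmest signal well above background. The code was tested on simulated data.

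The members and gene lists were chosen with earlier results of these data known. Named genes are the 5 given markers, the 12 largest measured differences and 6 largest bounds that passed in each direction, up to 5 genes of smallest p per list plus up to 2 that passed against its median, and the 5 smallest p of the genotype contrast. Alternatives changed the block, arrays, scaling, background, filter, probe rule, moderation and source of values.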

Additional observations from a re-analysis of the deposited data

Results flagged for a closer look

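In 3 of the 187 named genes both wild-type embryos differed one way between tissues and both mutant embryos the other way. For Ccdc187 the wild-type minus mutant difference was 2.48 (log2), from 2.65 and 1.87 in the wild-type embryos and -0.26 and -0.18 in the mutants (limma unadjusted p = 6.12e-05, adjusted p = 0.273). Its signal was not well above background in wild-type paraxial tissue. For Hoxd8 the value was 1.33, from 0.41 and 0.51 in wild type and -1.61 and -0.13 in mutants (limma adjusted p = 0.957). For the semaphorin Sema3d it was -1.05, from -0.73 and -1.10 in wild type and 0.12 and 0.15 in mutants (limma adjusted p = 0.837). None of the 3 contrasts passed.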

How the results depend on the processing

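Counts of genes that passed are given as all, higher and lower in neural tube, against 709, 222 and 487. No replicate block gave 4, 1 and 3. A fixed replicate block, which pairs the tissues within embryos, gave 51, 7 and 44, and on the wild-type arrays alone 253, 77 and 176. A random replicate block on those arrays gave 181, 54 and 127. Normexp background gave 1510, 518 and 992, no filter 362, 131 and 231, and a trended, robust prior 1089, 391 and 698. Median scaling gave 976, 403 and 573. Quantile scaling, both other filters, the mean of probes and the deposited value table stayed within 1.5 times. The genotype contrast gave 0 in each such fit that held mutants. Leaving out an array or embryo, at the correlation of all arrays, gave 31 to 566, 12 to 303 and 12 to 263, and 0 to 15 for the genotype contrast. With the correlation estimated again from 7 arrays, chosen after seeing the data, the counts were 2683, 1062 and 1621 without neural tube 1, 1983, 1055 and 928 without paraxial tissue 1 (genotype contrast 18), 313, 49 and 264 without neural tube 2, and 260, 84 and 176 without paraxial tissue 2 (genotype contrast 32). The cause of these shifts was not tested.

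Of 3895 values of named genes under the alternatives, 16 changed sign, none of a gene that passed. With the mean of probes Pcdh9 was 0.22 and Ywhaz 0.066. With an array or embryo left out, values ran for Hoxa7 from -0.91 to 0.035, Hoxc11 from -0.34 to 1.24, Isl1 from -0.41 to 3.03, Ntrk3 from -0.45 to 2.25, Ywhaz from -0.85 to 0.10, Hoxa11 from -0.74 to 0.099, Lyz2 from -0.085 to 2.17 and Gapdh from -0.73 to 0.039. Each array reads 1 embryo, so signal near background and the number of embryos limit all sizes given.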
